A study of Mus musculus with 16 samples.

Results

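A set of 10 genes of cartilage and tendon was followed in cultured mouse heart slices, namely Sox9, Acan, Comp, Matn4, Cilp, Cilp2, Chad, Tnmd, Scx and Hapln1. They were taken as the rows of the raw count table whose Ensembl identifiers map to these symbols, and make up 10 of the 55487 genes in that table. They were selected on their levels and changes in these same 4 groups, so those values stand here as a description and not as a test. RNA came from heart slices of male mice aged 8 weeks, with apex and base of the heart removed. Swhtr null slices carried a transcriptional stop signal on both alleles of the lncRNA Sweetheart (Swhtr3xpA/3xpA), in a line derived from hybrid C57Bl6/129S6 ES cells, backcrossed to C57BL6J and kept by homozygous breeding, whereas WT slices came from C57Bl6/J mice. Treated slices were held at 3% oxygen for 7 days and at 21% oxygen for the next 7 days, and untreated slices were held at 21% oxygen for all 14 days. Each of the groups (Swhtr null treated, Swhtr null untreated, WT treated and WT untreated) had 4 libraries, from 4 mice per genotype and 2 litters. Which library came from which mouse is not given in the sources used here, so some libraries share a mouse, and standard errors and p-values measure the spread between libraries. Swhtr itself is not among the counted genes, so the labelled genotypes were not checked against it.

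SOX9 is the transcription factor that sets up and maintains the chondrocyte program in cartilage. Chondrocytes embed themselves in a gel of aggrecan (the product of Acan), a large chondroitin sulfate proteoglycan that is tied to hyaluronan by link protein (Hapln1), and in collagen fibrils that are bridged by COMP, matrilins and chondroadherin. Tendon cells are specified by the transcription factor scleraxis (Scx), whose target tenomodulin (Tnmd) marks mature tendon. The heart builds related matrix in its valves, and the fibroblasts of mature mouse infarct scars, named matrifibrocytes, switch on cartilage genes such as Comp, Chad and Cilp2.

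The libraries held 17830351 to 29941903 counts each, and all 10 genes had at least 10 counts in total over the 16 libraries, the minimum for testing. Cardiomyocyte markers were scarce in these slices although the labelled tissue is heart. The summed level of 9 of them was 9.87 to 98.3 CPM (counts scaled to a common library size after TMM normalization) in Swhtr null treated and 6.1 to 12 CPM in Swhtr null untreated slices. It was 8.52 to 50.5 CPM in WT treated and 7.18 to 20.6 CPM in WT untreated slices. The sum of 10 fibroblast markers, most of it from Col1a1, was 9630 to 12300 CPM in Swhtr null treated, 8750 to 10400 CPM in Swhtr null untreated, 8910 to 10700 CPM in WT treated and 9480 to 10900 CPM in WT untreated slices. Both Swhtr null libraries numbered 2 stood apart. The sum of 9 macrophage markers was 7740 CPM in the treated one, against 14400 to 18400 CPM in the other Swhtr null treated libraries. In the untreated one it was 14600 CPM, against 19900 to 22200 CPM in the other Swhtr null untreated libraries. Values without both libraries are given beside the genes that they bear on, a choice made after the data were seen.

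Promoter sequences of the measured proteoglycan and matrix genes are shown first, because Acan, Vcan (versican, the paralogue of aggrecan described below) and Matn4 all had higher mean levels in Swhtr null treated than in untreated slices, whereas Cilp did not move. Each sequence holds the 250 bases before a RefSeq start site in GRCm38.p6, and RefSeq entries were matched for 7 of the 10 genes (Acan, Chad, Cilp, Cilp2, Hapln1, Matn4 and Tnmd). Acan lies on the plus strand and its window is chr7:79052976-79053225, Vcan lies on the minus strand with chr13:89742513-89742762, Matn4 on the minus strand with chr2:164405161-164405410, and Cilp on the plus strand with chr9:65264930-65265179. The Matn4 window overlaps an exon of Rbpjl, which runs on the opposite strand. The 6 motifs below were searched on both strands, namely the SOX cores AACAAT and ACAAAG, the hypoxia response element ACGTG, the NKX2-5 core AAGTG, the TATA box TATAAA and the GC box GGGCGG, none of which contains another. Capitals mark each match.
Acan promoter: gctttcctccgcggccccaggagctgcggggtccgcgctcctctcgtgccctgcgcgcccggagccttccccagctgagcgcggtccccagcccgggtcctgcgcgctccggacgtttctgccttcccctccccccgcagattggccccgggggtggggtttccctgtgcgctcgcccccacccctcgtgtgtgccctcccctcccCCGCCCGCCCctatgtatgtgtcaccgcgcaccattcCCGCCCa
Vcan promoter: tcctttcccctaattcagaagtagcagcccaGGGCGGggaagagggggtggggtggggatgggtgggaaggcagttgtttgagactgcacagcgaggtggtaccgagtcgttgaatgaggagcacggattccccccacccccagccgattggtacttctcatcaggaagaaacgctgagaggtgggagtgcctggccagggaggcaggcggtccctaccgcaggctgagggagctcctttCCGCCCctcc
Matn4 promoter: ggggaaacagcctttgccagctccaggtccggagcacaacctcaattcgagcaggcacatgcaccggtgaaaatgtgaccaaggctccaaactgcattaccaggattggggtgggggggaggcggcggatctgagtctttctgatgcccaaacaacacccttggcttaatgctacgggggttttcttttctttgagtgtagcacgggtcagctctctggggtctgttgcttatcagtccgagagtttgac
Cilp promoter: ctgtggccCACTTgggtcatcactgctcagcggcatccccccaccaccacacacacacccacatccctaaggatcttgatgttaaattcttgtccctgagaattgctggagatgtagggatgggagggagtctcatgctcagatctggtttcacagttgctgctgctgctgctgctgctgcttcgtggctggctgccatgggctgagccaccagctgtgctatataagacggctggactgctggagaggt
The Acan window held 3 GC boxes, of which 2 overlap each other, and the Vcan window held 2. A GC box was present in 32.7% of 32851 promoter windows of the same length. The Cilp window held 1 AAGTG, as did 40.7% of all windows, and the Matn4 window shown held none of the motifs searched. A window before another RefSeq start site of Matn4 (chr2:164404819-164405068), which is not printed since it lies inside the gene, held 1 AAGTG and 1 GC box. None of the 4 windows held AACAAT (9.42% of all windows), ACAAAG (16.5%) or ACGTG (16.6%). These matches describe letters in a short window and say nothing of binding.

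Level per kilobase of exon separated the genes into an expressed and a nearly silent set. In Swhtr null treated slices Comp was highest at 34.1 ± 16.1 CPM per kb (SD, n = 4), followed by Sox9 at 14.7 ± 2.91, Cilp at 10 ± 3.58 and Acan at 3.45 ± 1.37 CPM per kb. Sox9 and Cilp overlapped in that group and so did Cilp and Acan, while Comp stood clear of Sox9. In WT treated slices the order was the same, with Comp at 23 ± 11.6, Sox9 at 11.8 ± 0.866, Cilp at 8.65 ± 1.61 and Acan at 1.88 ± 0.86 CPM per kb, and no neighbours among these overlapped. In both untreated groups Comp ranked behind Sox9 and Cilp, with 9.24 ± 8.47 CPM per kb in Swhtr null untreated and 7.57 ± 3.87 CPM per kb in WT untreated slices, and neighbours among these genes overlapped. Chad, Scx and Matn4 lay lower, between 0.144 and 0.943 CPM per kb in every group mean, and Cilp2, Tnmd and Hapln1 never exceeded a mean of 0.0667 CPM per kb. Of the summed CPM of the 10 genes, Comp made up 42.7%, Sox9 25.6% and Cilp 18% in Swhtr null treated slices, against 21.2%, 34.2% and 32.1% in Swhtr null untreated slices. Comp made up 39.6%, Sox9 28.3% and Cilp 21.3% of it in WT treated slices, against 16.1%, 30.6% and 36.5% in WT untreated slices. Comp thus had the highest share in both treated groups, Sox9 in Swhtr null untreated and Cilp in WT untreated slices. The sum was 242, 341, 198 and 167 CPM in the Swhtr null treated libraries, against 125, 187, 96.2 and 109 CPM in the Swhtr null untreated libraries. In WT it was 176, 228, 136 and 151 CPM in treated, against 180, 162, 116 and 101 CPM in untreated libraries. Treated and untreated sums overlapped in both genotypes.

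**Figure D1:**
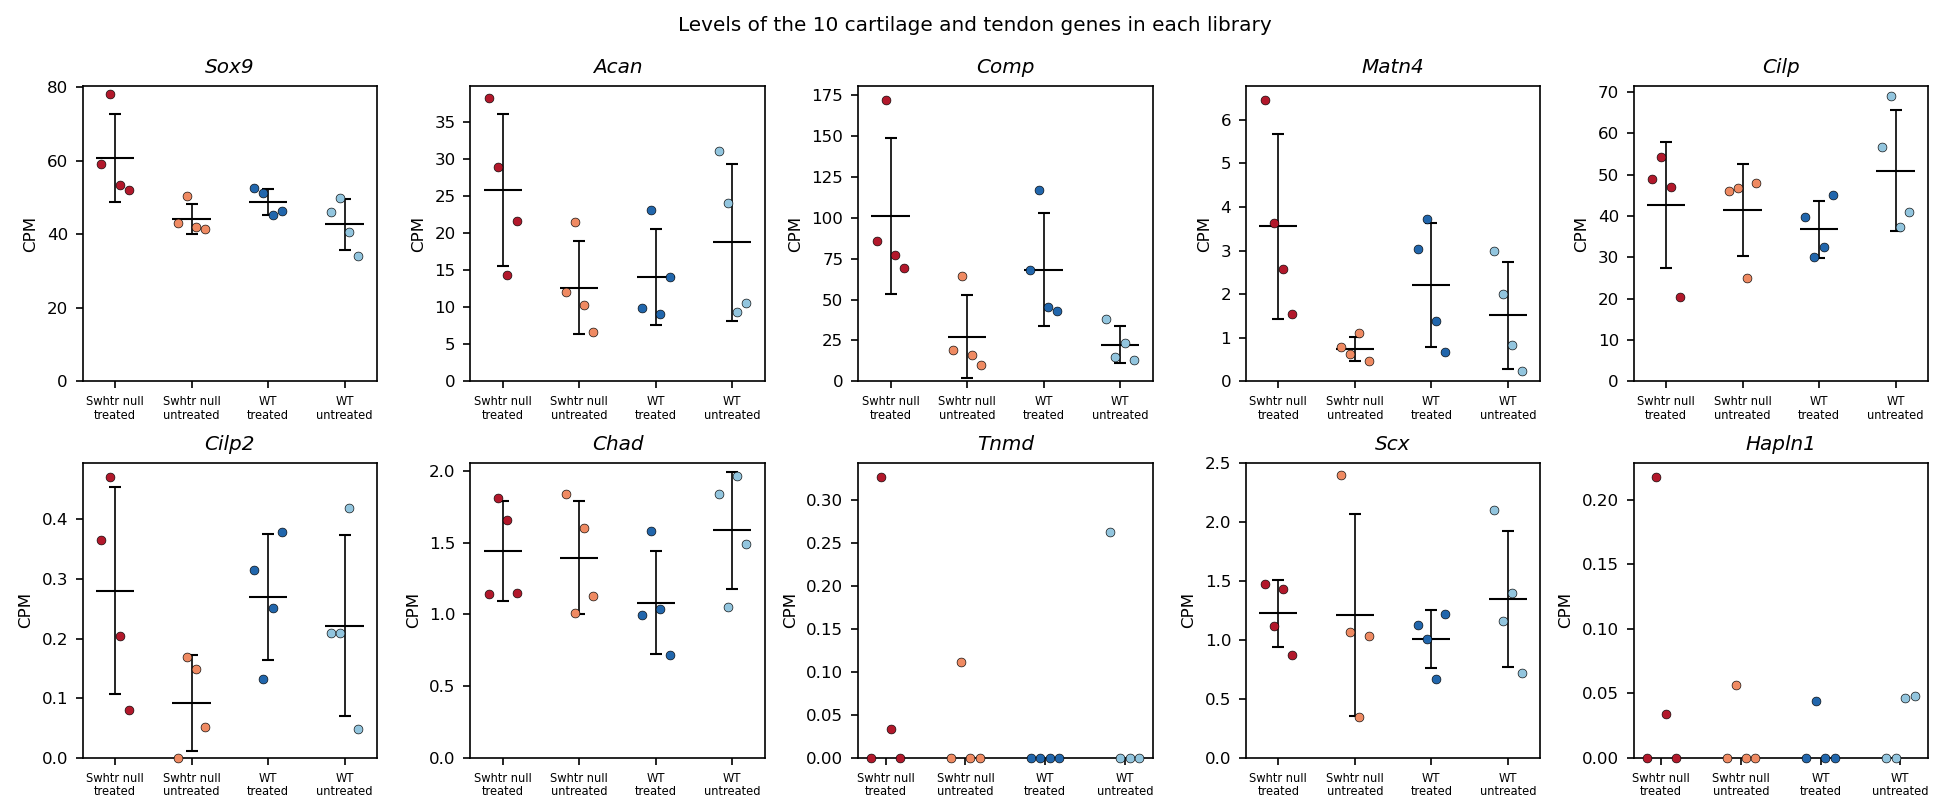
Level of each of the 10 genes in CPM (vertical axis, a separate scale for each gene) in the 4 libraries of each group. Points are libraries, the horizontal line is the mean and the bar its standard deviation (n = 4), which are left out for Tnmd and Hapln1 because most of their libraries are at 0. Comp lay between 69.3 and 172 CPM in Swhtr null treated slices and between 9.95 and 64.7 CPM in Swhtr null untreated slices.

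Sox9, the regulator of the set, lies on chromosome 11 of GRCm38 (112782224 to 112787760). It stood at 59.3, 78.2, 53.4 and 52.2 CPM in Swhtr null treated slices, against 43.1, 50.4, 41.9 and 41.4 CPM in Swhtr null untreated slices. The groups did not overlap, and the treated library numbered 2 was the highest of all 16. The fitted log2 fold change was 0.46 (standard error 0.13), under the limit of 0.58 (about 1.5-fold) that a call required, and 0.38 (standard error 0.10) without both Swhtr null libraries numbered 2. In WT, Sox9 was at 52.6, 51.3, 45.4 and 46.3 CPM in treated, against 46.2, 50, 40.6 and 34.2 CPM in untreated slices. The WT groups overlapped, with a log2 fold change of 0.19 (standard error 0.13). Sox9 varied least within groups, with a standard deviation of 0.198 on the log2 scale, and its highest library was 2.29 times its lowest. In bulk RNA such a difference in level cannot be split into more cells of a type and more RNA per cell.

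Comp encodes cartilage oligomeric matrix protein (thrombospondin-5), a pentameric protein that bridges collagen fibrils, and lies on chromosome 8 (70373558 to 70382066). It stood at 85.8, 172, 77.5 and 69.3 CPM in Swhtr null treated slices, against 19, 64.7, 16 and 9.95 CPM in Swhtr null untreated slices. The lowest treated library was above the highest untreated one, and within each group the library numbered 2 was far above the rest. The log2 fold change was 1.89 (standard error 0.60). In WT, Comp was at 68.2, 117, 45.4 and 42.8 CPM in treated, against 38.2, 14.7, 23.7 and 13.2 CPM in untreated slices. These groups did not overlap either, and the log2 fold change was 1.61 (standard error 0.60). The difference of the 2 responses, Swhtr null minus WT, was 0.29 (standard error 0.83), so that Comp was higher after treatment in both genotypes by amounts within each other's error. Without both Swhtr null libraries numbered 2, the log2 fold change in Swhtr null slices was 2.37 (standard error 0.49).

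Matn4, on chromosome 2 (164389393 to 164405160), encodes matrilin-4, a filament-forming adaptor protein of the matrix. It was at 6.46, 3.63, 2.58 and 1.55 CPM in Swhtr null treated slices, against 0.8, 0.619, 1.1 and 0.462 CPM in Swhtr null untreated slices. The groups did not overlap, and the treated libraries spread over a wider range than the untreated ones. The log2 fold change was 2.23 (standard error 0.69), and 2.14 (standard error 0.90) without both libraries numbered 2. WT levels were 3.03, 3.73, 1.38 and 0.674 CPM in treated, against 2.99, 2, 0.841 and 0.241 CPM in untreated slices, groups that overlapped, with a log2 fold change of 0.55 (standard error 0.66). Swhtr null untreated slices had the lowest mean, 0.744 ± 0.273 CPM (SD, n = 4), against 1.52 ± 1.22 CPM (SD, n = 4) in WT untreated slices, which overlapped with them. Counts of Matn4 were low, 5 to 141 per library, and 2.88% of its exon bases are shared with Rbpjl on the opposite strand, whose reads could not be told apart since no source gives the strand used in counting. Apart from Tnmd, Hapln1 and Cilp2, whose counts were too few, it varied most within groups, with a standard deviation of 1.01 on the log2 scale.

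Acan, on chromosome 7 (79053483 to 79115099), had 38.2, 28.9, 14.3 and 21.6 CPM in Swhtr null treated slices, against 12.1, 21.5, 10.3 and 6.67 CPM in Swhtr null untreated slices. In WT it had 9.93, 23.1, 9.06 and 14.1 CPM in treated, against 31, 24.1, 9.34 and 10.5 CPM in untreated slices. Both pairs of groups overlapped. The log2 fold change was 1.03 (standard error 0.49) in Swhtr null and -0.41 (standard error 0.49) in WT slices, and the difference of the responses was 1.44 (standard error 0.69), a value that edgeR did not call. Without both Swhtr null libraries numbered 2, the value in Swhtr null slices was 1.34 (standard error 0.57). The WT untreated library numbered 1, at 31 CPM, was above every WT treated library. Without it the WT log2 fold change was -0.05.

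**Figure D2:**
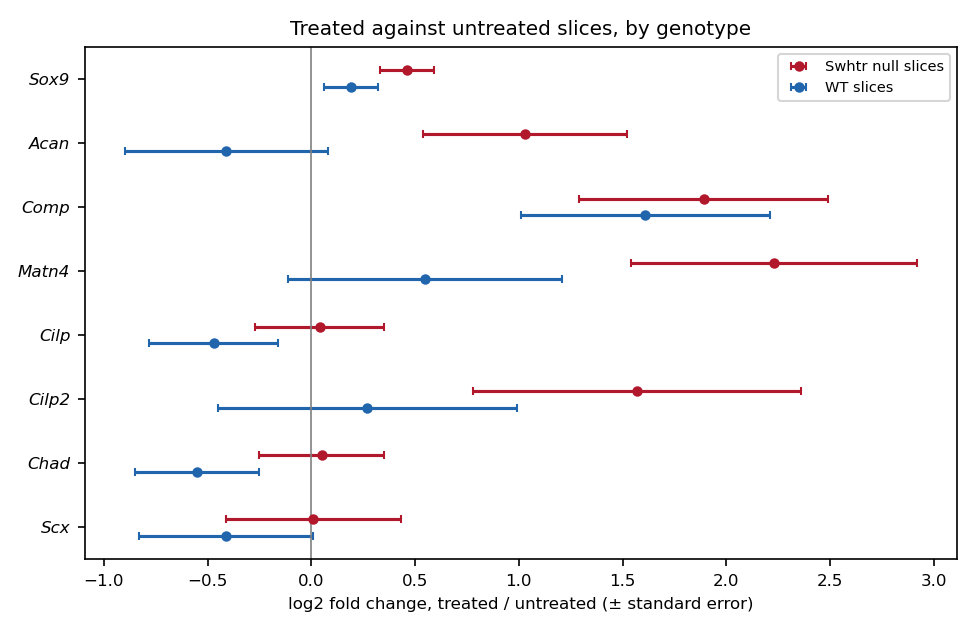
Fitted log2 fold change of treated over untreated slices (horizontal axis) for 8 genes (vertical axis) in Swhtr null slices (red, upper point of each pair) and WT slices (blue, lower point). Bars are standard errors from the fit over 16 libraries. Comp lies at 1.89 and 1.61, whereas Acan lies at 1.03 in Swhtr null and -0.41 in WT slices. Tnmd and Hapln1 are left out because most of their libraries held no count.

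Cilp encodes cartilage intermediate layer protein, which is also made by cardiac fibroblasts, and lies on chromosome 9 (65265180 to 65280605). It was at 49, 54.3, 47 and 20.3 CPM in Swhtr null treated slices, against 46, 46.8, 24.9 and 48.1 CPM in Swhtr null untreated slices. The groups overlapped almost fully, with 1 low library in each, and the log2 fold change was 0.04 (standard error 0.31). In WT it was at 39.7, 30, 32.5 and 45 CPM in treated, against 56.7, 69, 37.3 and 41 CPM in untreated slices, with overlap and a log2 fold change of -0.47 (standard error 0.31). Its paralogue Cilp2, on chromosome 8 (69880369 to 69887687), was near the limit of detection, with 29 counts over the Swhtr null treated libraries, against 7 counts over the Swhtr null untreated libraries, and 25 counts over the WT treated, against 18 over the WT untreated libraries. Its groups overlapped in both genotypes.

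Chad encodes chondroadherin, a leucine-rich repeat protein that binds collagen and cells, and lies on chromosome 11 (94565047 to 94569127). It was at 1.14, 1.81, 1.66 and 1.15 CPM in Swhtr null treated slices, against 1.84, 1.01, 1.6 and 1.13 CPM in Swhtr null untreated slices. In WT slices the levels were 0.993, 1.58, 1.04 and 0.716 CPM in treated, against 1.84, 1.05, 1.96 and 1.49 CPM in untreated slices. All groups overlapped, and the log2 fold changes were 0.05 (standard error 0.30) in Swhtr null and -0.55 (standard error 0.30) in WT slices. Scx, on chromosome 15 (76457452 to 76459458), was at 1.47, 1.12, 1.43 and 0.875 CPM in Swhtr null treated slices, against 2.4, 1.07, 0.349 and 1.03 CPM in Swhtr null untreated slices. WT slices had 1.13, 1.01, 0.668 and 1.22 CPM in treated, against 2.1, 1.16, 1.4 and 0.722 CPM in untreated slices. The log2 fold changes of Scx were 0.01 and -0.41 (standard error 0.42 each) in Swhtr null and WT slices, so the tendon regulator showed no shift beyond its spread. Chad lies within Acsf2 and Scx within Bop1, each on the opposite strand and without shared exon bases.

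Tnmd, on chromosome X (133850980 to 133865577), and Hapln1, on chromosome 13 (89539796 to 89611652), gave almost no counts. Tnmd had 0, 9, 1 and 0 counts in the Swhtr null treated libraries, against 0, 2, 0 and 0 counts in the Swhtr null untreated libraries. In WT it had 0 counts in every treated library, against 5, 0, 0 and 0 counts in the untreated libraries. Hapln1 had 0, 6, 1 and 0 counts in Swhtr null treated, against 0, 1, 0 and 0 counts in Swhtr null untreated libraries, and 0, 1, 0 and 0 counts in WT treated, against 0, 0, 1 and 1 counts in WT untreated libraries. A count of 0 allows a level of up to 3 counts, which is 0.102 to 0.169 CPM per library, for counting error only. No fold change is given for either gene. The highest count of both came from the Swhtr null treated library numbered 2.

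By the fit over all genes (edgeR's quasi-likelihood test with Benjamini-Hochberg adjustment over 24971 genes, a call needing an adjusted p under 0.05 together with a log2 fold change beyond 0.58 in either direction), 0 of the 10 genes were called in Swhtr null treated against untreated slices, where 0.621% of all genes were called. At an unadjusted p under 0.05 there were 3, Sox9, Comp and Matn4, beside 16.5% of all genes. The 7 genes other than Tnmd, Hapln1 and Cilp2, whose counts were too few, had log2 fold changes of 0.01 to 2.23 with a median of 0.46, beside a median of 0.01 over all genes. Higher without overlap were 3 of the 10, against 3.54% of all genes tested and 5.19% of those with a mean of at least 1 CPM. DESeq2 called 2 of the 10, Comp and Matn4, where it called 1.86% of all genes. In an edgeR fit blocked by replicate number within genotype, the test called the same 2 genes, where 2.47% of all genes were called. That block joins same-numbered libraries in both genotypes, though the numbers mark no known pairs. In that fit the log2 fold change was 2.12 (standard error 0.40) for Comp and 2.15 (standard error 0.31) for Matn4. Without the untreated Swhtr null library numbered 2, edgeR called Comp, with a log2 fold change of 2.75 (standard error 0.54), where it called 575 genes in all. Without both Swhtr null libraries numbered 2 it also called Comp alone of the 10, where it called 423 genes in all. With all libraries it called 155 genes. Since the genes were chosen with these values known, nothing is read from these counts.

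**Figure D3:**
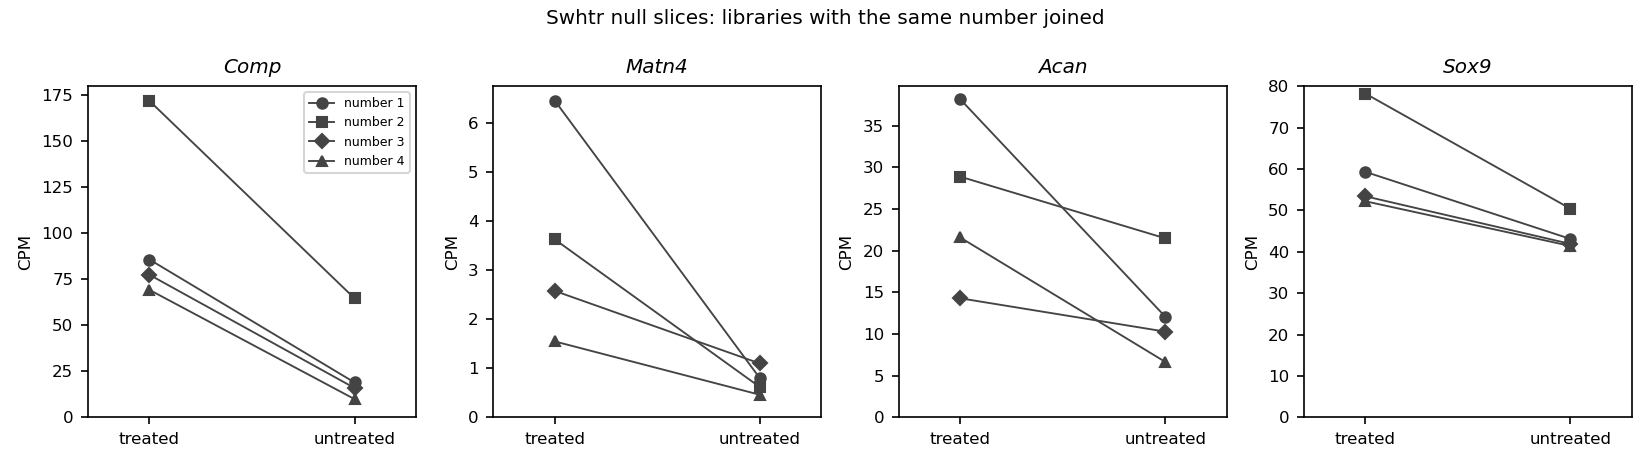
Level in CPM (vertical axis) of Comp, Matn4, Acan and Sox9 in Swhtr null treated and untreated libraries (horizontal axis), with libraries of the same number joined. Each gene is higher in the treated library in 4 of 4 pairs, which any pairing would give for Comp, Matn4 and Sox9, whose groups did not overlap. Same-numbered WT libraries, not shown, were also higher in 4 of 4 for these 3 genes, and in 1 of 4 for Acan. The pair numbered 2 (squares) has the highest Comp and Sox9 in both groups.

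Within same-numbered Swhtr null libraries, Comp was 4.52, 2.66, 4.84 and 6.96 times as high in the treated library as in the untreated one. Matn4 was 8.07, 5.87, 2.35 and 3.36 times as high, and Acan was 3.14, 1.34, 1.39 and 3.25 times as high. Sox9 showed the most even ratios of the 4 genes, 1.38, 1.55, 1.28 and 1.26. Thus the 4 genes were higher in the treated library in every pair, though by amounts that differed among pairs by over 2-fold for Comp, Matn4 and Acan. For Comp, Matn4 and Sox9, whose groups did not overlap, any pairing gives this result, so it adds nothing to the group values. In same-numbered WT libraries the treated one was also higher in 4 of 4 for Comp (1.78 to 7.97 times), Matn4 (1.01 to 2.8 times) and Sox9 (1.03 to 1.35 times). Acan was higher in 1 of 4 (0.32 to 1.34 times).

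In WT treated against untreated slices, 0 of the 10 genes and 0% of all genes were called by edgeR, while an unadjusted p under 0.05 was reached by 1 of the 10 genes (Comp) and 4.81% of all genes, and DESeq2 called 9 genes, none of them among the 10. Of the 7 genes with enough counts, 3 had positive and 4 negative log2 fold changes, with a median of -0.41. Comp was the 1 gene of the 10 whose treated libraries all lay above the untreated ones, which held for 1.92% of all genes. For the difference between the responses, the 7 genes had values of 0.27 to 1.69 with a median of 0.51, but 0 of the 10 and 0% of all genes were called by edgeR. At an unadjusted p under 0.05 there were 0 of the 10 genes and 6.89% of all genes for that difference, the smallest adjusted p was 0.71, and DESeq2 called 0. It was therefore not shown that the responses of these genes differ between genotypes.

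Swhtr null and WT slices were also compared within each treatment. In untreated slices edgeR called 0 of the 10 genes and 0.1% of all genes, and DESeq2 also called 0 of the 10. Unadjusted p-values under 0.05 were found for 0 of the 10 and 5.36% of all genes. Of the 7 genes with enough counts, 2 had positive and 5 negative log2 fold changes, with a median of -0.18. Acan was at 12.6 ± 6.32 CPM in Swhtr null untreated and 18.7 ± 10.6 CPM in WT untreated slices (SD, n = 4 each), which overlapped. In treated slices edgeR called 0 of the 10 genes and 0.0921% of all genes, and DESeq2 also called 0 of the 10. Unadjusted p-values under 0.05 were found for 2 of the 10 (Sox9 and the sparsely counted Tnmd) and 6.25% of all genes. The 7 genes had log2 fold changes of 0.21 to 0.87, with a median of 0.42. Acan was at 25.8 ± 10.2 CPM in Swhtr null treated and 14.1 ± 6.44 CPM in WT treated slices (SD, n = 4 each), with a log2 fold change of 0.87 (standard error 0.48). Sox9 was at 60.8 ± 12 CPM in Swhtr null treated and 48.9 ± 3.57 CPM in WT treated slices (SD, n = 4 each). Its libraries overlapped by 1, since WT treated libraries reached 52.6 CPM and the lowest Swhtr null treated library had 52.2 CPM. These comparisons share their groups with the treatment comparisons and do not add independent evidence on the 10 genes.

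Among paralogues of the 10 genes, Vcan and Matn2 were called higher in Swhtr null treated against untreated slices, 2 of 9 tested, where 0.316% of all genes were called higher. Vcan encodes versican, a hyaluronan-binding chondroitin sulfate proteoglycan like aggrecan, and lies on chromosome 13 (89655312 to 89742509), 43.7 kb from Hapln1. It rose to 323, 287, 287 and 286 CPM in Swhtr null treated slices, against 220, 219, 165 and 161 CPM in Swhtr null untreated slices. Its groups did not overlap, and edgeR gave a log2 fold change of 0.63 with standard error 0.10 and adjusted p = 0.0045. In WT it was at 265, 288, 261 and 235 CPM in treated, against 234, 205, 204 and 177 CPM in untreated slices, groups that were apart by 1 CPM, with a log2 fold change of 0.35 (standard error 0.10) that was not called. Matn2, on chromosome 15 (34306677 to 34436273), encodes matrilin-2, the matrilin of soft connective tissue. It rose to 135, 160, 109 and 111 CPM in Swhtr null treated slices, against 69.7, 91.4, 80.1 and 64.3 CPM in Swhtr null untreated slices, without overlap, and edgeR gave a log2 fold change of 0.76 with standard error 0.16 and adjusted p = 0.029. In WT slices it was at 125, 115, 99.2 and 83.9 CPM in treated, against 83.2, 94.6, 90.7 and 64.7 CPM in untreated slices, with overlap and a log2 fold change of 0.34 (standard error 0.16). The difference between the responses was not called for Vcan, 0.28 (standard error 0.15), or for Matn2, 0.41 (standard error 0.23). The Vcan call was lost without the untreated Swhtr null library numbered 3 (log2 fold change 0.57) or 4 (0.56), which put it under the fold limit, and held without both numbered 2 (0.72). The Matn2 call was lost without the treated Swhtr null library numbered 1 (0.73) or 2 (0.63) and without the untreated one numbered 1 (0.71), 3 (0.78) or 4 (0.68), and held without both numbered 2 (0.73).

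**Figure D4:**
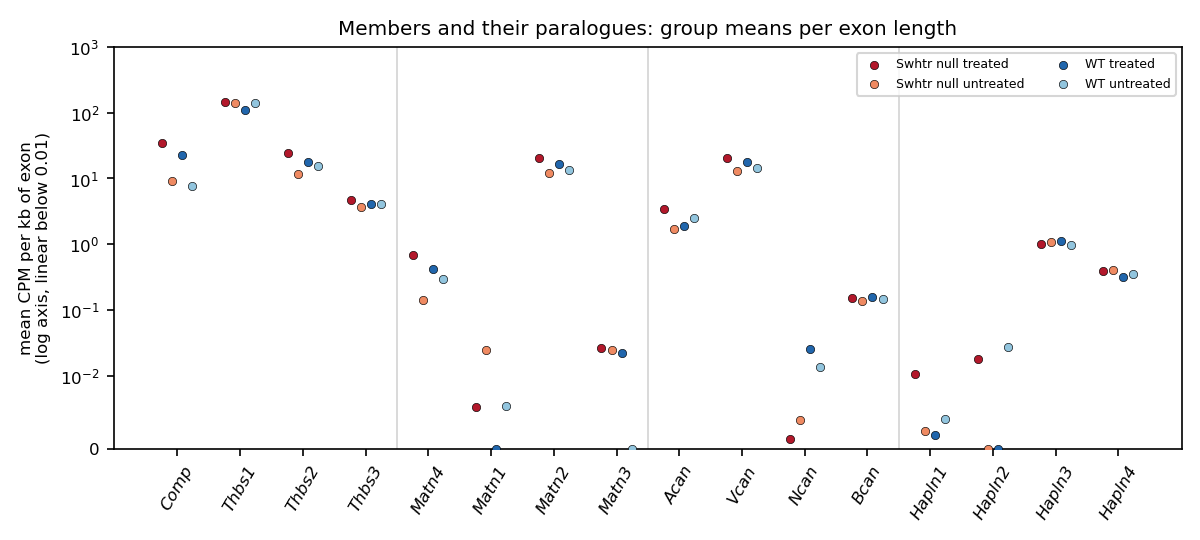
Mean level per kilobase of exon in the 4 groups (vertical axis, CPM per kb, logarithmic above 0.01 and linear below) for Comp, Matn4, Acan and Hapln1 and their paralogues (horizontal axis, families separated by lines). Points are means of 4 libraries. Comp in Swhtr null treated slices, at 34.1 CPM per kb, lies between Thbs1 (144 CPM per kb) and Thbs2 (24.5 CPM per kb), and Hapln1 lies far below Hapln3.

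Per kilobase, the 10 genes were in part the minor members of their families. Vcan was at 20.4 CPM per kb in Swhtr null treated and 13.2 CPM per kb in Swhtr null untreated slices, above Acan at 3.45 and 1.69 CPM per kb in the same groups. Matn2 was at 20.6 CPM per kb in Swhtr null treated and 12.2 CPM per kb in Swhtr null untreated slices, above Matn4 at 0.687 and 0.144 CPM per kb, while Matn1, the cartilage matrilin, had 6 counts over all 16 libraries. Among link proteins, Hapln3 was at 1.02 CPM per kb in Swhtr null treated and 1.08 CPM per kb in Swhtr null untreated slices, against 0.0107 and 0.00238 CPM per kb for Hapln1. Hapln3 ends 2 bases from the end of Acan on chromosome 7. It was at 3.3, 2.18, 4.58 and 4.3 CPM in Swhtr null treated, against 4.71, 2.7, 3.09 and 4.72 CPM in Swhtr null untreated slices, with a log2 fold change of -0.09 (standard error 0.24), unlike the positive value of its neighbour Acan. Of the thrombospondins, Thbs1 was at 144 CPM per kb in Swhtr null treated and 142 CPM per kb in Swhtr null untreated slices, and Comp was at 34.1 and 9.24 CPM per kb in the same groups. Thbs2, a thrombospondin of fibroblasts chosen after its values were seen, was at 240, 206, 102 and 138 CPM in Swhtr null treated, against 80.8, 132, 67.1 and 51.8 CPM in Swhtr null untreated slices, with overlap.

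Of other cartilage matrix genes, 13 of 16 were tested and edgeR called 0 in Swhtr null treated against untreated slices, with 9 positive and 4 negative values and a median of 0.11. At an unadjusted p under 0.05 there were 4, beside 16.5% of all genes. DESeq2 called Cnmd and Col27a1, beside 1.86% of all genes, and edgeR with the replicate block called Cnmd, Col2a1 and Epyc, beside 2.47%. Defining markers of chondrocytes were present in part. Sox9, Acan, Col11a1, Col2a1 and Cnmd were measured at the levels given here, whereas Snorc and the regulator Nkx3-2 had no count in any library, Ucma had 7 counts, Matn1 had 6 and Col9a1 had 39 counts over all 16 libraries, 31 of them in the Swhtr null libraries numbered 2. Col2a1, the fibrillar collagen of cartilage picked out once its values were known, was low but present. It had 5.68, 8.13, 6.11 and 3.82 CPM in Swhtr null treated, against 1.65, 2.7, 6.04 and 1.28 CPM in Swhtr null untreated slices, and overlapped through 1 untreated library. In WT it had 3.39, 3.47, 3.67 and 4.42 CPM in treated, against 0.839, 1.47, 1.12 and 1.11 CPM in untreated slices. These WT groups were wide apart, at a log2 fold change of 1.72 with standard error 0.39, which edgeR did not call (adjusted p = 0.99), whereas DESeq2 and the replicate block did. Cnmd, which encodes the angiogenesis inhibitor chondromodulin and was likewise picked for its values, had 4.58, 3.92, 2.31 and 4.26 CPM in Swhtr null treated, against 1.22, 1.41, 1.25 and 1.64 CPM in Swhtr null untreated slices. Its groups did not overlap in Swhtr null slices, and edgeR gave a log2 fold change of 1.44 with standard error 0.38 and adjusted p = 0.059. The 3 most abundant genes of the list overlapped between the groups. Col27a1, a fibrillar collagen, was at 68.7 ± 19.8 CPM in Swhtr null treated and 45.2 ± 6.37 CPM in Swhtr null untreated slices (SD, n = 4 each), with overlap. Prg4 (lubricin, the lubricant of joint surfaces) was at 38.2 ± 30.1 CPM in Swhtr null treated and 44.3 ± 24.9 CPM in Swhtr null untreated slices, and Col11a1 at 13.6 ± 7.39 and 12.6 ± 6.46 CPM in the same groups (SD, n = 4 each). Their log2 fold changes were -0.20 and 0.11. Without both libraries numbered 2 they were -0.35 (standard error 0.46) for Prg4 and 0.25 (standard error 0.51) for Col11a1, and with single libraries left out they ran between -0.82 (without the treated one numbered 2) and 0.27 (without the untreated one) for Prg4, and between -0.15 and 0.52 for Col11a1 in the same order.

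**Figure D5:**
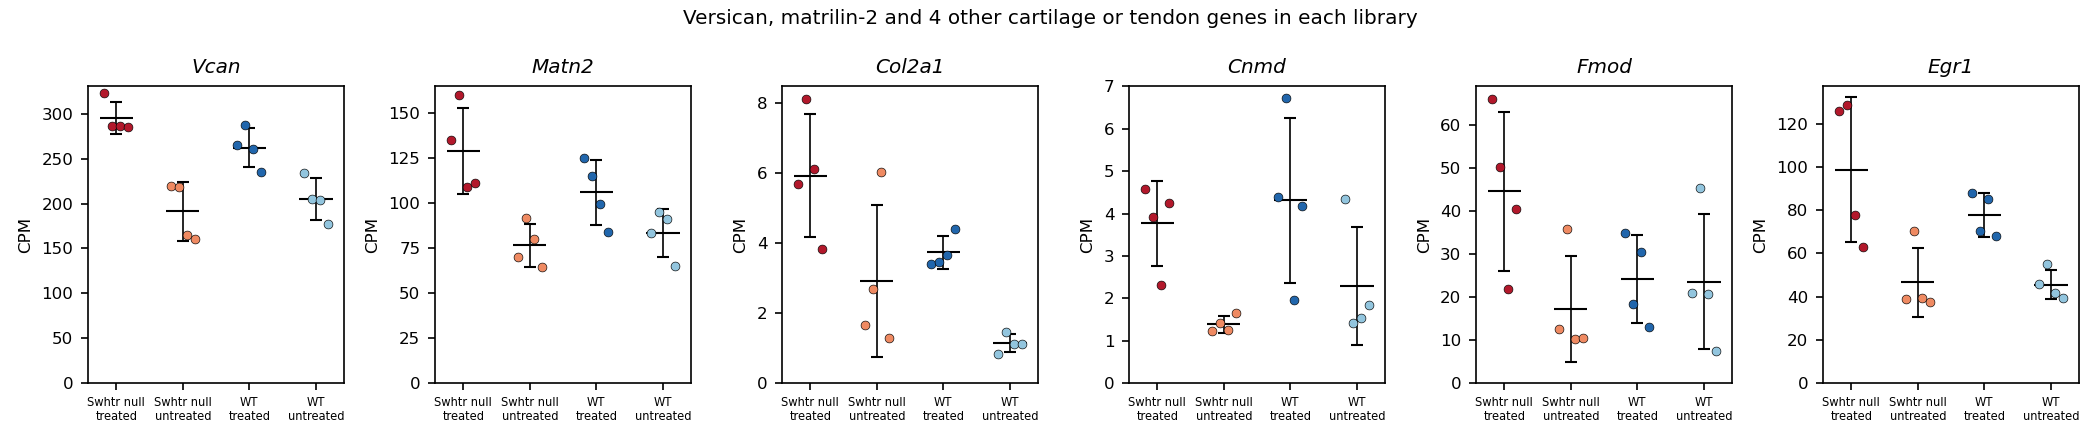
Level in CPM (vertical axis, a separate scale for each gene) of Vcan, Matn2, Col2a1, Cnmd, Fmod and Egr1 in the 4 libraries of each group, with mean and standard deviation (n = 4). Vcan lies between 286 and 323 CPM in Swhtr null treated slices and between 161 and 220 CPM in Swhtr null untreated slices. Col2a1 lies between 3.39 and 4.42 CPM in WT treated slices and between 0.839 and 1.47 CPM in WT untreated slices.

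Regulators of chondrocyte and bone development showed 0 calls by edgeR among 13 tested of 14 in Swhtr null treated against untreated slices, with 9 positive and 4 negative values and a median of 0.26. At an unadjusted p under 0.05 there were 5, beside 16.5% of all genes. Both DESeq2 and edgeR with the replicate block called Sox6 higher and Runx3 lower, where they called 1.86% and 2.47% of all genes. The most abundant were Runx1 at 91.1 ± 9.58 CPM in Swhtr null treated and 102 ± 15.9 CPM in Swhtr null untreated slices, Trps1 at 49 ± 6.08 and 45.1 ± 2.87 CPM, and Arid5a at 25.8 ± 4.23 and 21.5 ± 2.82 CPM in the same groups (SD, n = 4 each), all with overlap. Sox5 and Sox6, the partners of SOX9 in chondrocytes, were chosen with their values known. Sox6 was at 3.85, 4.1, 2.31 and 1.35 CPM in Swhtr null treated, against 1.46, 1.91, 1.05 and 0.615 CPM in Swhtr null untreated slices, and Sox5 at 11.8, 11.2, 9.77 and 8.91 CPM, against 5.98, 11.7, 7.73 and 6.26 CPM. Both overlapped, with log2 fold changes of 1.20 (standard error 0.38) and 0.40 (standard error 0.17), while their WT values were 0.06 (standard error 0.36) and -0.17 (standard error 0.17). Without both Swhtr null libraries numbered 2, edgeR called Sox5 at 0.61 (standard error 0.15), where it called 423 genes in all.

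Of tendon and ligament genes, 14 of 15 were tested and edgeR called 0 in Swhtr null treated against untreated slices, with 12 positive and 2 negative values and a median of 0.19. An unadjusted p under 0.05 was reached by 5, beside 16.5% of all genes. Kera (keratocan) had no count in any library. The most abundant were fibrillar collagen genes, and their groups overlapped. Col3a1 was at 12900 ± 1500 CPM in Swhtr null treated and 10400 ± 1060 CPM in Swhtr null untreated slices, Col1a1 at 7670 ± 1120 and 7480 ± 571 CPM, and Col1a2 at 5940 ± 567 and 5620 ± 329 CPM in the same groups (SD, n = 4 each). Egr1, an early response factor that also acts in tendon and was picked out with its values known, stood at 126, 129, 77.6 and 62.9 CPM in Swhtr null treated, against 38.7, 70.5, 39.4 and 37.6 CPM in Swhtr null untreated slices. In WT it stood at 88.1, 70.5, 85.2 and 67.9 CPM in treated, against 45.8, 54.9, 41.8 and 39.4 CPM in untreated slices, with no overlap. The log2 fold changes were 1.09 (standard error 0.26) in Swhtr null and 0.78 (standard error 0.26) in WT slices, and edgeR called neither. The Swhtr null value was called by DESeq2 (1.86% of all genes called) and with the replicate block (2.47%). It was also called without both libraries numbered 2 (1.20, standard error 0.23), where 423 genes in all were called. Fmod (fibromodulin, a collagen-binding proteoglycan of tendon, chosen in the same way) was at 66.1, 50.2, 21.8 and 40.5 CPM in Swhtr null treated, against 12.6, 35.8, 10.3 and 10.5 CPM in Swhtr null untreated slices, with overlap.

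Genes of hyaluronan and aggrecan turnover were all measured, 16 of 16, and edgeR called 0 in Swhtr null treated against untreated slices, with 11 positive and 5 negative values and a median of 0.29. At an unadjusted p under 0.05 there were 7, beside 16.5% of all genes. Adamts5 and Has2 were called by DESeq2 (1.86% of all genes called), with the replicate block (2.47%) and without both libraries numbered 2 (423 genes called in all). Cd44, the hyaluronan receptor, was at 263 ± 41.8 CPM in Swhtr null treated and 289 ± 15.9 CPM in Swhtr null untreated slices (SD, n = 4 each). The proteases that cut aggrecan and versican were at 278 ± 71.1 and 205 ± 39 CPM (Adamts1) and 145 ± 27.1 and 125 ± 5.47 CPM (Adamts4) in the same groups (SD, n = 4 each). Adamts5, the main aggrecanase of mouse cartilage, chosen with its values known, was at 170, 212, 122 and 154 CPM in Swhtr null treated, against 85.1, 140, 72.3 and 64.8 CPM in Swhtr null untreated slices, with overlap and a log2 fold change of 0.86 (standard error 0.26). In WT it was at 139, 142, 133 and 94.4 CPM in treated, against 128, 124, 99.2 and 79 CPM in untreated slices.

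Values of markers of other cells also differed between Swhtr null treated and untreated slices. The sums below were not tested, and the part of these cells in the levels above was not tested. The summed level of 6 smooth muscle and pericyte markers was 692 to 883 CPM in Swhtr null treated and 457 to 606 CPM in Swhtr null untreated slices, without overlap, and 596 to 673 CPM in WT treated and 494 to 739 CPM in WT untreated slices. Pdgfrb held most of this sum in every library. Taken singly, 1 of the 6 markers was higher without overlap in Swhtr null treated slices, beside 3.54% of all genes. All 9 macrophage markers had negative values in Swhtr null slices, with a median log2 fold change of -0.56 (-0.48 without both libraries numbered 2). Of these edgeR called 0, and 4 had an unadjusted p under 0.05, beside 16.5% of all genes. DESeq2 called C1qa, where it called 1.86% of all genes. Without both libraries numbered 2 edgeR called C1qa, C1qb and C1qc, where it called 423 genes in all. In WT slices 8 of the 9 macrophage markers were also negative and 1 positive, with a median of -0.12, and edgeR called 0. C1qa was at 406, 324, 387 and 390 CPM in WT treated, against 503, 491, 510 and 511 CPM in WT untreated slices, without overlap. Its levels in Swhtr null treated (99.3 to 391 CPM) and untreated slices (289 to 667 CPM) overlapped. All 9 cardiomyocyte markers had positive values in Swhtr null slices, with a median of 2.77, and also in WT slices, with a median of 1.33. Their sum was 13.2, 98.3, 68.7 and 9.87 CPM in the Swhtr null treated libraries, so those numbered 2 and 3 carried it. In Swhtr null slices edgeR called 0 of these markers, and 6 had an unadjusted p under 0.05, beside 16.5% of all genes. DESeq2 called 4, where it called 1.86% of all genes. Of the 10 fibroblast markers 9 were positive, with a median of 0.78, and edgeR called 2 higher (Scara5 and Dpt), where 0.316% of all genes were called higher. The summed level of 9 markers of activated fibroblasts, most of it from Fn1, was 9150 to 11800 CPM in Swhtr null treated and 8880 to 10400 CPM in Swhtr null untreated slices. Singly, 4 of these 9 markers were positive and 5 negative, from -0.39 to 0.49 with a median of -0.05. Their smallest adjusted p from edgeR was 0.016, but all were within the fold limit and 0 were called. The sum of 6 Schwann and glial markers was 8.47 to 29.9 CPM in Swhtr null treated and 8.57 to 13.6 CPM in Swhtr null untreated slices. Of the Schwann markers 1 of 6 was called higher, S100b, with 4.12, 6.42, 3.77 and 1.99 CPM in Swhtr null treated, against 1.84, 1.52, 1.15 and 0.769 CPM in Swhtr null untreated slices (adjusted p = 0.02 from edgeR). Sums of 6 endothelial markers were 1200 to 1930 CPM in Swhtr null treated and 1120 to 1400 CPM in Swhtr null untreated slices. Singly, 5 of these 6 were positive and 1 negative, with a median of 0.27. Their smallest adjusted p from edgeR was 0.027, and 0 were called. Sums of 6 epicardial markers were 8.62 to 43.1 CPM in Swhtr null treated and 11.5 to 40.3 CPM in Swhtr null untreated slices. Of the epicardial markers 4 of 6 had positive and 2 negative values in Swhtr null slices, with a median of 0.14. One of the negative ones, Krt19, was called lower, where 0.621% of all genes were called in either direction. It had 0.824, 1.34, 0.713 and 0.676 CPM in Swhtr null treated, against 2.54, 2.98, 6.43 and 5.13 CPM in Swhtr null untreated slices (adjusted p = 0.004 from edgeR). Krt19 was lower in WT too, with 38, 16, 14 and 32 counts in treated, against 41, 83, 66 and 67 counts in untreated libraries. There DESeq2 called it and edgeR did not.

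For the 7 genes with a mean of at least 1 CPM, the genes of most similar profile over the 16 libraries were sought among 11658 candidates, by the root mean square difference of centred log2 CPM. The libraries share treatment, genotype and in part the mouse, and the measure is a description. Mxra8 was nearest to Sox9, at a difference of 0.0901, followed by Clstn1 at 0.11, where Sox9 itself had a standard deviation of 0.259. Lmod1 (0.299) and Mustn1 (0.328) were nearest to Acan, whose standard deviation was 0.726. Gfra1 (0.47) and Arc (0.64) were nearest to Comp, whose standard deviation was 1.19, and Negr1 (0.517) and Eln (0.586) to Matn4, whose standard deviation was 1.15. For Cilp these were Ccn4 (0.279) and Doc2b (0.297), beside a standard deviation of 0.437. Chad was nearest to Zscan2 (0.28) and Zkscan7 (0.29), and Scx to Ngef (0.451) and Tmem138 (0.458). For these last 2 genes, whose own standard deviations were 0.385 and 0.571, the nearest profiles left most of the variation unmatched.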

How the data were processed

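RNA from 16 heart slice libraries (4 groups of 4) was sequenced as paired-end reads of 150 bp. The authors aligned the reads with STAR to mm10 (GRCm38) and assigned them to Ensembl genes with GenomicAlignments, and the deposited values are raw counts for 55487 genes, none of them filtered. Library preparation is given as rRNA depletion with a ScriptSeq kit in the study's methods and as a TruSeq kit in the labels. Whether counting used strand is not given in the sources used here, so overlapping genes may share reads. Symbols and positions come from GENCODE M21 (55227 identifiers matched).

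For the tests, edgeR 4.0.16 was run in R 4.3.3. Genes summing to at least 10 counts over all libraries (24971) were scaled by TMM and fitted with 4 group means (12 residual degrees of freedom) by the robust quasi-likelihood test, with Benjamini-Hochberg adjustment over all genes tested. A call needed an adjusted p under 0.05 together with a log2 fold change beyond 0.58 in either direction. Standard errors are the log2 fold change divided by the root of the F statistic. Levels are CPM with SD over 4 libraries, and log2 CPM used a prior count of 2. Depth was 17830351 to 29941903 counts per library. No 2 libraries agreed within sampling noise (lowest chi-square per degree of freedom 7.08). The procedure was tested on simulated data.

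The 10 genes, the gene lists and the motifs were chosen with earlier results of these data known. Named from each list were the called genes, up to 4 by smallest p, or, with none called, the 3 with the highest mean CPM, and for each of the genes with a mean of at least 1 CPM the 2 nearest profiles. Other names are stated to have been chosen after their values were seen, as were Epyc, Col9a1, Thbs4, Ucma, Hapln3, Runx3, Has2, C1qa, C1qb and C1qc. Deviations of same-numbered Swhtr null treated and untreated libraries had correlations of 0.148, 0.591, 0.259 and 0.399, and these libraries were set side by side for that reason. Same-numbered WT libraries had -0.108, -0.0836, 0.165 and 0.319. Unlike numbers reached 0.334 in Swhtr null (treated 3 with untreated 4) and 0.429 in WT libraries (treated 1 with untreated 2). Swhtr null treated 3 and WT untreated 4, which cannot share a mouse, reached 0.461. Only number 2 of the Swhtr null libraries was above all of these unlike pairs, so pairs are not established in either genotype. Alternatives were DESeq2 1.42.0, its size factors, no filter, edgeR's filter by expression, only the libraries compared, a replicate block, leaving out each library, and, added after the data were seen, both Swhtr null libraries numbered 2 left out.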

Additional observations from a re-analysis of the deposited data

Results flagged for a closer look

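Of 47 groups of 4 libraries examined for 12 genes, 10 (21.3%) held a library far from the other 3 by Dixon's test. For normally spread values chance alone gives about 1 in 20, a rate that does not hold for counts near 0. Where 3 libraries held no count, any count in the remaining one was flagged. The flags of Tnmd and Hapln1 are therefore listed without weight, and the share flagged cannot be set against chance. Both Swhtr null libraries numbered 2 were high in Comp, with 172 CPM in the treated one (next highest 85.8 CPM) and 64.7 CPM in the untreated one (next highest 19 CPM). The same libraries were flagged in Tnmd, with 0.327 CPM (9 counts) in the treated and 0.112 CPM (2 counts) in the untreated one. They were also flagged in Hapln1, with 0.218 CPM (6 counts) in the treated and 0.0562 CPM (1 count) in the untreated one. Tnmd was also flagged in WT untreated library 1 at 0.262 CPM (5 counts), and Hapln1 in WT treated library 2 at 0.0439 CPM (1 count). Cilp was low in Swhtr null untreated library 3 at 24.9 CPM (next lowest 46 CPM). Vcan was high in Swhtr null treated library 1 at 323 CPM, with the other 3 libraries within 1 CPM of each other (next highest 287 CPM).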

How the results depend on the processing

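In Swhtr null treated against untreated slices, 155 genes were called, against 464 with DESeq2, 6 with only the libraries compared, 616 with the replicate block and 423 without both Swhtr null libraries numbered 2, and leaving out each library gave 22 (without Swhtr null untreated library 4) to 575 (without Swhtr null untreated library 2). Of the 10 genes 0 were called, against 2 with DESeq2, 2 with the replicate block (Comp and Matn4 in each) and 1 without both libraries numbered 2 (Comp), and 0 to 1 with each library left out. In WT slices 0 genes were called, against 9 with DESeq2, 1 without a filter, 1 with only the libraries compared, 19 with the replicate block, and 0 to 3 with each library left out. For Swhtr null against WT in treated slices 23 genes were called, against 39 with DESeq2 and 20 to 25 with each library left out. For the difference between the responses 0 genes were called, against 52 with the replicate block, and the numbers mark no known pairs in either genotype. Signs of Sox9, Acan, Comp and Matn4 in Swhtr null slices held in all 23 alternatives (Comp 1.51 to 2.75, Matn4 1.79 to 2.48, Acan 0.78 to 1.40, Sox9 0.31 to 0.53), whereas those of Cilp, Chad and Scx, which were near 0, held in 18, 18 and 11. Vcan was called in 20 and Matn2 in 16 of 23 alternatives; neither was called with only the libraries compared, and Matn2 was not called without a filter. No other call among the 10 genes, Vcan and Matn2 changed with the replicate block, while in Swhtr null slices it also called, of the other cartilage, tendon, turnover and paralogue genes, Cnmd, Col2a1, Epyc, Sox6, Thbs2, Egr1, Adamts5 and Has2 higher and Runx3 lower. Among genes of the other lists that were not called in Swhtr null slices, Cnmd and Egr1 were each called in 7 of 23 alternatives, Col27a1, Sox6 and Adamts5 in 4, Col2a1 and Sox5 in 2 and Thbs2 in 1, and Col2a1 in WT slices in 4. For the difference between the responses Adamts5 was called in 1 of 22. The low counts of Tnmd, Hapln1 and Cilp2 allow no statement on their changes.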

Other observations

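Some further genes of cartilage and tendon, chosen because of their values, were highest in either or both Swhtr null libraries numbered 2. Epyc (epiphycan, a small proteoglycan of growth cartilage) was at 1.96 CPM in the treated library numbered 2, against at most 0.407 CPM in the other 15 libraries. Col9a1, a collagen chain of cartilage, was at 0.617 CPM in the treated and 0.787 CPM in the untreated library numbered 2, and at most 0.135 CPM in the other 14 libraries. Thbs4, a thrombospondin of tendon and muscle, was at 1.96 and 1.52 CPM in the same 2 libraries, and at most 0.781 CPM in the rest. Prg4 was at 78.2 CPM in the treated and 81.6 CPM in the untreated library numbered 2, and at most 44.7 CPM elsewhere. Other genes of the lists went the other way. Runx3 was lowest of its group in both libraries numbered 2, at 5.62 CPM in the treated and 10.3 CPM in the untreated one. Chad was lowest of its group in the untreated one, at 1.01 CPM. In Sox9, whose level is well above the counting limit, the treated library numbered 2 was highest of all at 78.2 CPM, and the untreated one was highest of its group at 50.4 CPM.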
